A study of Homo sapiens with 6 samples.

Results

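The genes described here encode complexes II to V of the mitochondrial respiratory chain and cytochrome c. They were taken from the gene table by name: symbols that start with COX and a digit, with UQCR or with ATP5, together with SDHA, SDHB, SDHC, SDHD, CYC1 and CYCS, and without pseudogenes and antisense genes. This gave 56 of the 16781 genes in the table. There were 4 genes of complex II, 10 of complex III, 1 for cytochrome c, 13 subunits and isoforms of complex IV, 9 assembly factors with a COX name and 19 of complex V. Of the 56, 53 passed the filter on low counts and were tested.

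The respiratory chain passes electrons from reduced cofactors to oxygen and stores the energy as a proton gradient across the inner mitochondrial membrane. Complex II, succinate dehydrogenase, is also an enzyme of the TCA cycle and hands electrons to coenzyme Q. Complex III takes them on to cytochrome c, complex IV (cytochrome c oxidase) gives them to oxygen, and complex V (ATP synthase) uses the gradient to make ATP. Complex II is encoded wholly in the nucleus, whereas complexes III, IV and V also need subunits encoded by mitochondrial DNA, whose genes were not analysed here. Hydrogen sulfide (H2S), to which the series title refers and which the enzyme CBS can make, is known to inhibit complex IV at high levels and to feed electrons to coenzyme Q at low levels.

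Messenger RNA was measured in 3 libraries of CBS KO cells and 3 libraries of WT cells. Both are Caco-2, a human cell line established from colon adenocarcinoma and grown here in high-glucose medium with serum. The CBS KO cells carried Cas9 and a guide against CBS, delivered by a lentivirus and selected with puromycin, and the design text mentions no picking of single clones. WT cells were unmodified, so infection and selection differ between the groups along with the guide. Separate cultures are not stated for the replicates, so p-values reflect only how much these libraries varied, which can be technical variation.

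The libraries held 12805180 to 14307287 counts in CBS KO and 16097680 to 16176745 in WT. CBS stood at 24.6, 18.5 and 25.4 CPM (counts relative to the TMM-scaled library size) in CBS KO and at 48.8, 53.0 and 50.6 CPM in WT (log2 fold change -1.15, SE 0.10, edgeR adjusted p = 1.18e-08). Of 8 epithelial markers all were detected in every library, with summed levels of 8272 to 9077 CPM in CBS KO and 7035 to 7623 CPM in WT. Of these markers EPCAM, KRT8, KRT18 and KRT19 were higher in CBS KO with TMM, APOB, CDX2 and VIL1 were lower and CDH1 did not pass. In the deposited TPM 1 of the 8 was higher and 6 were lower, against 15.3% and 67.6% of all genes. The log2 fold changes of KRT8, KRT18 and KRT19 were then -0.08, -0.24 and -0.16. Of 12 measured markers of leukocytes, fibroblasts, endothelium and the virus packaging line, 4 stayed under 0.5 CPM in every library, among them PTPRC and COL1A2, and the summed level was 282 to 304 CPM in CBS KO and 265 to 299 CPM in WT. Most of that sum was COL1A1, a fibroblast collagen, at 173 to 189 CPM in CBS KO and 181 to 208 CPM in WT, which did not pass (edgeR adjusted p = 0.0897). Within the sum CD68 was higher in CBS KO and PDGFRB, PECAM1, CD14 and VWF were lower. The part of these markers in the results below was not tested.

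Of the 53 tested genes of complexes II to V and cytochrome c, 30 were higher in CBS KO, 9 were lower and 14 did not pass (edgeR's quasi-likelihood test, TMM scaling, Benjamini-Hochberg adjusted p under 0.05 over 13028 genes). That is 56.6% higher and 17.0% lower, against 38.4% higher and 38.9% lower among the genes tested. The share called in either direction was 73.6%, close to the 77.2% of all genes. The changes were small: 2 of the 53 reached a log2 fold change of 1 in size, against 23.6% of all genes. The median log2 fold change was 0.30, with a range of -0.58 to 1.71, and that of all genes was -0.01. Complex IV had 10 of 12 tested genes higher and none lower, and complex II had none higher and 1 of 4 lower.

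**Figure D1:**
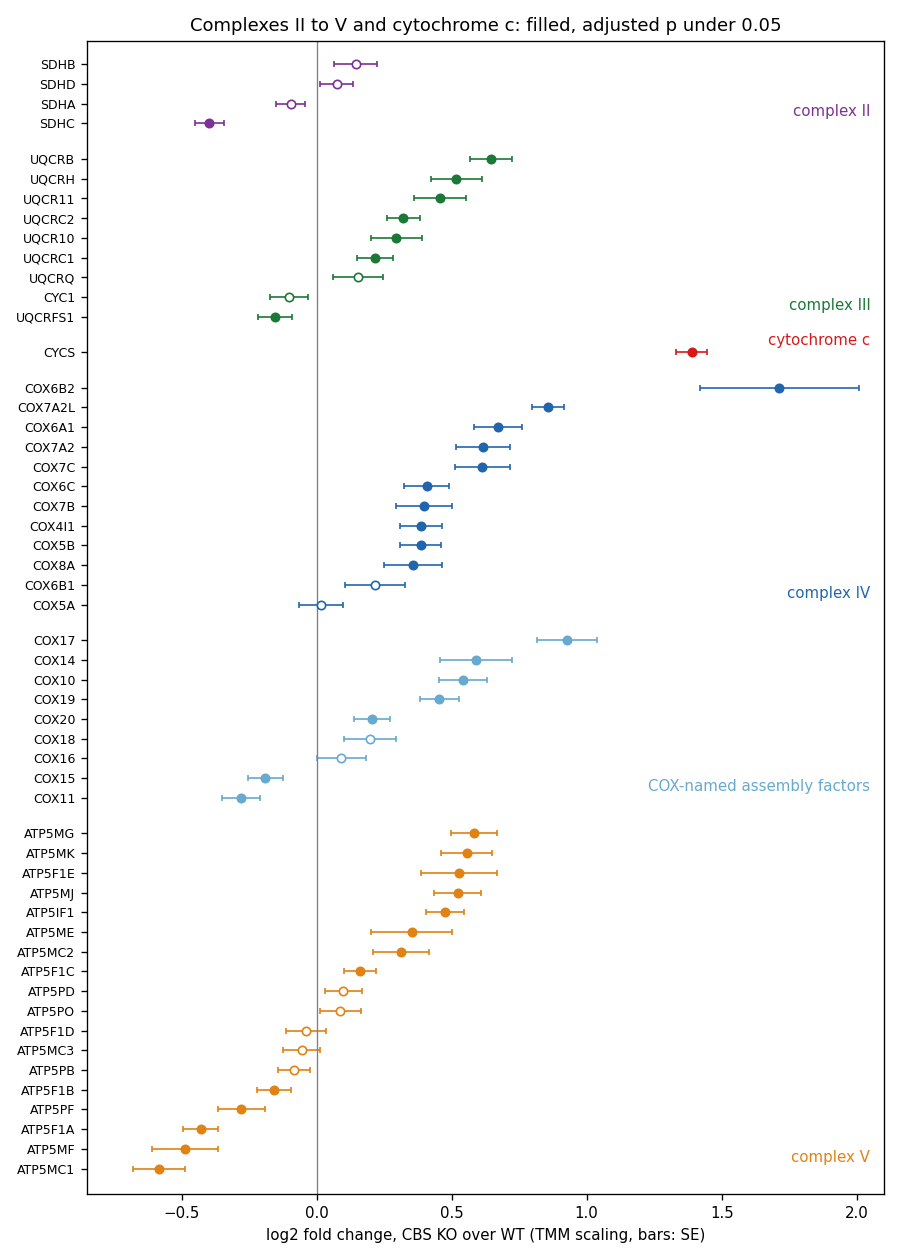
Log2 fold change of CBS KO over WT (x axis, TMM scaling) for the 53 tested genes, grouped by complex, with bars for the SE. Filled points passed at an adjusted p under 0.05. Cytochrome c at 1.39 stands to the right of all genes but the scarce isoform COX6B2, complex IV lies at or above 0 and complex V spreads to both sides, an arrangement around 0 that moves to the left with the other scalings.

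The sign of most of these changes depended on how the libraries were scaled. Scaled by the library total, 9 of 53 were higher and 22 lower, against 22.8% higher and 56.8% lower among all genes (79.6% in either direction). In the deposited FPKM 9 of 52 were higher and 25 lower, against 22.9% higher and 57.9% lower among all genes (80.8% in either direction). In the deposited TPM 4 of 54 were higher and 36 lower, against 15.3% higher and 67.6% lower among all genes (82.9% in either direction). Under these 3 scalings a smaller share of them than of all genes was thus called in each direction. The median of all genes was -0.36 by library total, -0.32 in FPKM and -0.54 in TPM. The median of the genes of complexes II to V and cytochrome c lay above that of all genes. The distance was 0.31 for TMM, 0.30 for the library total, 0.22 for FPKM and 0.25 for TPM. TMM and the library total use the same counts with another factor per library, so their near-equal distances follow from the method. FPKM and TPM are related in the same way, so the 4 distances are not separate checks. Directions are given below for the TMM scaling, whose median over all genes is near 0. CYCS, COX17 and COX7A2L were called higher with each of the 4 scalings. ATP5F1A, ATP5F1B, ATP5MC1, ATP5MF, ATP5PF, COX11, COX15, SDHC and UQCRFS1, all 9 genes called lower with TMM, were also called lower with the other 3. Those 3 scalings moved the median of all genes down, so they are little check of a lower call. With median-ratio size factors the calls of UQCRFS1 and ATP5F1B were lost. COX6B2 was called higher with 3 of the 4 scalings and was not tested with FPKM.

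The libraries of CBS KO differed among themselves more than those of WT. In CBS KO, replicate 1 was the lowest library for 46 of the 53 genes and replicate 3 the highest for 43, whereas replicate 1 was the lowest for 35.8% of all tested genes. Together the 56 genes took 0.590, 0.634 and 0.685% of the counts in CBS KO replicates 1, 2 and 3 and 0.712, 0.718 and 0.729% in the WT replicates. The SD over libraries was larger in CBS KO for 46 of the 53 genes and for 66.5% of all genes. Without CBS KO replicate 1 the counts were 34 higher and 8 lower, and without replicate 3 they were 28 higher and 12 lower. The calls over all genes were 4910 higher and 5058 lower without replicate 1, and 5028 higher and 5234 lower without replicate 3.

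Upstream sequences are shown for the genes at either end of the range, so that motifs of known regulators can be read beside the change. RefSeq promoter sequences of build GRCh38.p14 were available for 44 of the 56 genes. The 250 bases before the start are given, 5′ to 3′ on the strand of the gene, for the 2 genes with the highest and the 2 with the lowest log2 fold change among those with a sequence and at least 5 CPM in WT. Capitals mark matches to the motif of NRF1, which drives many nuclear genes of the respiratory chain, or to the cyclic AMP response element (CRE).
CYCS (log2 fold change 1.39), chr7:25125261-25125510, minus strand: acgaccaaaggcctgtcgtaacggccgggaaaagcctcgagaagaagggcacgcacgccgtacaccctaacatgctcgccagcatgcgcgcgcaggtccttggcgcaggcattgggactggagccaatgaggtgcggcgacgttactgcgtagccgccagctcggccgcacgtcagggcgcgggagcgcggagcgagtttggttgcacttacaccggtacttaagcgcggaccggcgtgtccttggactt
COX17 (log2 fold change 0.93), chr3:119677407-119677656, minus strand: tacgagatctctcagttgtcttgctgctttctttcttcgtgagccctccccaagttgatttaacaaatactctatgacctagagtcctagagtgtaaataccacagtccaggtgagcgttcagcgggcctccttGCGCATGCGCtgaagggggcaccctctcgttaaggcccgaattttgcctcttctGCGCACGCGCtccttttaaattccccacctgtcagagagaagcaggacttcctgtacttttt
ATP5MC1 (log2 fold change -0.58), chr17:48892537-48892786, plus strand: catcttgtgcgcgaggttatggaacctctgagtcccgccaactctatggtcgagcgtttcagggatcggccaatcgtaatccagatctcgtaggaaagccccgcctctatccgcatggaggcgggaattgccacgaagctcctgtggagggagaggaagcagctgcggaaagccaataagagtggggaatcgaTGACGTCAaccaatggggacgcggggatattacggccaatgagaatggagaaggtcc
ATP5F1A (log2 fold change -0.43), chr18:46104228-46104477, minus strand: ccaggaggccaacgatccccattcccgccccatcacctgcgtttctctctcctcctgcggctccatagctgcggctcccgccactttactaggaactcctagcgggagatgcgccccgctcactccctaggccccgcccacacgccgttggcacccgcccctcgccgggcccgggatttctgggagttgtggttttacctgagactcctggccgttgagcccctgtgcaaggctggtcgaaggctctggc

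The COX17 promoter held NRF1 matches that begin 116 and 62 bases before the start, and the ATP5MC1 promoter a CRE match that begins 57 bases before it. The other 2 held no match to these letters. Over the window from 250 bases before to 50 after the start, on both strands, the NRF1 motif (as capitalised in COX17) was found in 27.3% of the 44 promoters, the ETS factor motif CCGGAAG in 40.9%, the YY1 motif in 13.6% and the CRE TGACGTCA in 6.82%. The shares over the promoters of all tested genes were 11.4, 19.0, 4.65 and 3.19%, and over all 27305 genes with a promoter sequence 6.28, 10.7, 2.26 and 1.98%. The NRF1 and YY1 motifs each allow any base at 1 position, the motifs share no requirement and may overlap, and for genes with several starts the first one listed was used. Of the 12 genes with an NRF1 match 7 were higher and 1 lower (median log2 fold change 0.21), and of the 32 without 21 were higher and 4 lower (median 0.39). Of the 18 with an ETS match 11 were higher and 2 lower (median 0.37), and of the 26 without 17 were higher and 3 lower (median 0.30).

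Complex II has 4 subunits: SDHA carries the flavin and binds succinate, SDHB holds the iron-sulfur clusters, and SDHC and SDHD anchor the enzyme in the membrane and bind coenzyme Q. SDHC fell 1.32-fold, with 141, 140 and 141 CPM in CBS KO and 188, 185 and 183 CPM in WT (log2 fold change -0.40, SE 0.05, edgeR adjusted p = 3.23e-06). The groups were far apart relative to their spread. Its membrane partner SDHD stood at 112 ± 0.82 CPM in CBS KO and 107 ± 5.98 CPM in WT (SD, n = 3 in each) and did not pass (adjusted p = 0.269, edgeR). SDHA had 224, 234 and 232 CPM in CBS KO and 251, 243 and 243 CPM in WT, which do not overlap, but did not pass either (log2 fold change -0.10, edgeR adjusted p = 0.11). SDHB was at 74.5 ± 9.10 CPM in CBS KO and 67.5 ± 2.85 CPM in WT (adjusted p = 0.112, edgeR). Complex II stood close to the median of all genes under each scaling, and SDHA, SDHB and SDHD were called lower along with SDHC under the other 3 scalings.

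For SDHC the deposited units differed in size. Its TPM was 87.4 ± 3.63 in CBS KO and 228 ± 1.42 in WT, a log2 fold change of -1.37, which is 0.83 below the median of all genes on that scale. The gene length that the deposited counts and FPKM imply for SDHC was 1986 bases in CBS KO and 1502 in WT, while for SDHD it was 1037 and 1038 bases. The table gives no transcript isoforms. SDHC lies on chromosome 1 at 161314381 to 161363206 (GRCh38) and has 4 annotated pseudogene copies.

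Complex III rose in 6 of 9 tested genes and fell in 1 with TMM, where 38.4% of all genes were higher and 38.9% lower. With TPM 6 of 10 tested genes were called lower and none higher, against 67.6% lower and 15.3% higher among all genes. UQCRB, which binds coenzyme Q, had 130, 148 and 168 CPM in CBS KO and 96.6, 94.3 and 94.5 CPM in WT, a 1.56-fold rise (log2 fold change 0.64, SE 0.08, edgeR adjusted p = 1.3e-06). The hinge protein gene UQCRH rose 1.43-fold and the small subunit gene UQCR11 1.37-fold. The large core proteins UQCRC1 and UQCRC2, which carry no redox centre, were up 1.16-fold and 1.25-fold. UQCR10, a small subunit, was up 1.23-fold with groups that overlap, and did not pass once WT replicate 2 was left out (adjusted p = 0.0505, edgeR).

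Neither nuclear-encoded subunit of complex III that carries a redox centre was called higher. UQCRFS1, the Rieske iron-sulfur protein, had 119, 123 and 136 CPM in CBS KO and 142, 136 and 142 CPM in WT (log2 fold change -0.15, SE 0.06, edgeR adjusted p = 0.0321). The groups of UQCRFS1 lie close together, and the call did not hold in DESeq2 (adjusted p = 0.0743), with median-ratio size factors (adjusted p = 0.0519), or when CBS KO replicate 1 or 2 or WT replicate 1 or 3 was left out (adjusted p of 0.0794 to 0.104, edgeR). CYC1, cytochrome c1, was at 132 ± 14.1 CPM in CBS KO and 141 ± 1.89 CPM in WT and did not pass (log2 fold change -0.10, adjusted p = 0.19, edgeR), but did without CBS KO replicate 3 (log2 fold change -0.20, adjusted p = 0.00176). UQCRQ did not pass (log2 fold change 0.15, adjusted p = 0.139, edgeR), and did without CBS KO replicate 1 (log2 fold change 0.25, adjusted p = 0.00461). UQCRHL, an intronless copy of UQCRH, had 7.05 counts over the CBS KO libraries and 9.10 over the WT libraries and was not tested. The counts of UQCRH and UQCRHL have decimals, and how reads shared by the 2 were divided is not stated.

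CYCS, which encodes the cytochrome c of somatic cells, changed most among the abundant genes. It carries electrons from complex III to complex IV, and when released into the cytosol it joins APAF1 in the apoptosome that activates caspase-9. CYCS had 267, 271 and 274 CPM in CBS KO and 98.4, 107 and 105 CPM in WT, a 2.62-fold rise (log2 fold change 1.39, SE 0.06, edgeR adjusted p = 1.47e-12). Each CBS KO library stood far above each WT library. In TPM the level of CYCS was 68.1, 65.6 and 61.6 in CBS KO and 35.4, 38.5 and 38.0 in WT. The log2 fold change of CYCS stayed positive under the other scalings, between 0.79 in TPM and 1.03 by library total. CYCS lies on chromosome 7 at 25118656 to 25125260, and the GENCODE annotation names 40 pseudogene copies of it, the highest number among the 56 genes, so its reads may be shared with them.

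Genes that act with cytochrome c moved in both directions. Of 13 genes of the apoptosome and of cytochrome c release 5 rose and 6 fell, with a median log2 fold change of -0.09, and in TPM 1 was higher and 10 were lower. Among all genes 38.4% were higher and 38.9% lower with TMM, and 15.3% were higher and 67.6% lower in TPM. MCL1, an inhibitor of apoptosis at the mitochondrial membrane, rose 3.07-fold, while its relative BCL2 fell 2.12-fold, CASP9 fell 2.06-fold and the protease gene HTRA2 1.71-fold. HCCS, the enzyme that attaches heme to cytochrome c, fell 1.14-fold with 36.9, 38.9 and 38.0 CPM in CBS KO and 42.5, 41.6 and 45.3 CPM in WT (edgeR adjusted p = 0.0224).

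**Figure D2:**
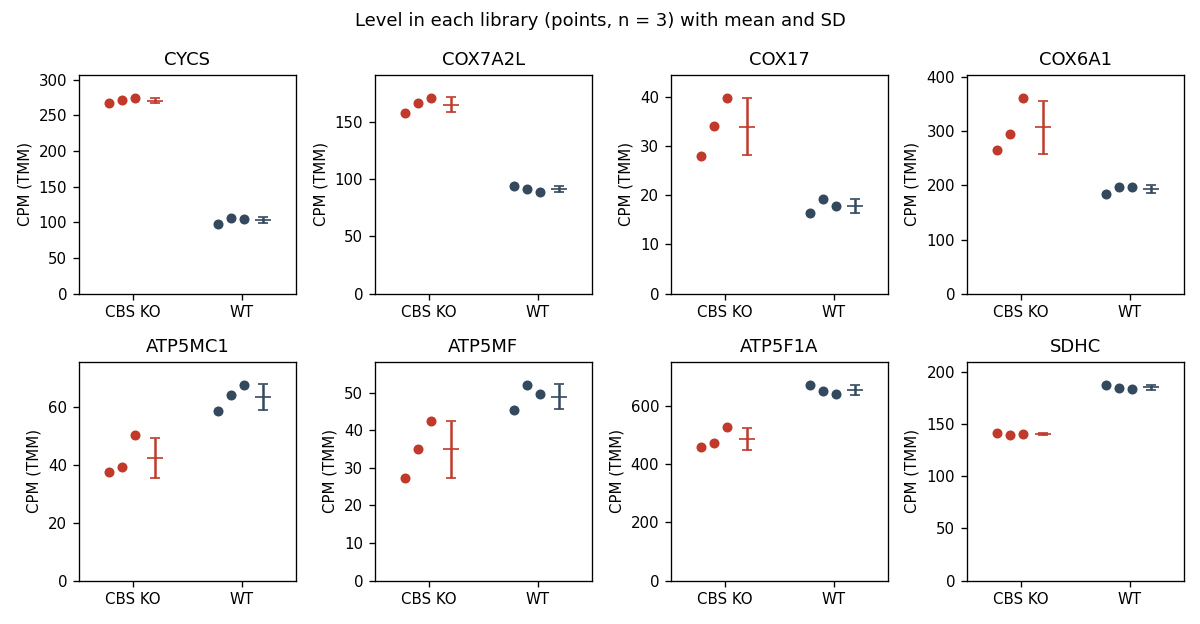
Level in CPM (TMM scaling, y axis from 0) of 8 genes in the 3 CBS KO and 3 WT libraries, with the mean and SD beside the points. CYCS, COX7A2L, COX17 and COX6A1 were higher in each CBS KO library than in any WT library (267 against at most 107 CPM for the lowest CBS KO library of CYCS), and ATP5MC1, ATP5MF, ATP5F1A and SDHC were lower. COX6A1 loses its call with TPM.

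Complex IV subunits rose in 10 of 12 tested genes and none fell with TMM, whereas 2 were called higher and 7 lower with TPM. The shares of all genes were 38.4% higher and 38.9% lower with TMM, and 15.3% higher and 67.6% lower with TPM. Relative to the median of all genes the complex stood higher by 0.41 for TMM, 0.41 for the library total, 0.35 for FPKM and 0.36 for TPM. These distances are not separate checks, since TMM and the library total differ only by a factor per library. COX7A2L, a relative of COX7A2 that helps to join complexes III and IV into supercomplexes, had 158, 167 and 171 CPM in CBS KO and 93.7, 91.3 and 88.4 CPM in WT, a 1.81-fold rise (log2 fold change 0.86, SE 0.06, edgeR adjusted p = 9.45e-10). COX6A1, the general isoform of a small regulatory subunit, had 266, 295 and 361 CPM in CBS KO and 184, 198 and 197 CPM in WT (log2 fold change 0.67, SE 0.09, edgeR adjusted p = 9.51e-06). By TPM, which divides by the authors' gene lengths, COX6A1 was the most abundant of the 56 genes, at 1588 ± 70.0 TPM in CBS KO and 1503 ± 55.2 TPM in WT.

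COX7A2 rose 1.53-fold and COX7C, a small membrane subunit, also 1.53-fold, with 222, 275 and 319 CPM in CBS KO and 178, 178 and 178 CPM in WT. COX4I1, a regulatory subunit, rose 1.31-fold, to 281, 308 and 365 CPM in CBS KO against 243, 248 and 238 CPM in WT (log2 fold change 0.39, SE 0.08, edgeR adjusted p = 0.000278). COX5B, COX6C, COX7B and COX8A rose between 1.28-fold and 1.33-fold. COX5A, another nuclear subunit, did not differ beyond its spread, at 89.0, 99.5 and 117 CPM in CBS KO and 99.7, 101 and 102 CPM in WT (log2 fold change 0.02, interval -0.14 to 0.17, adjusted p = 0.871 by edgeR). COX6B1 did not pass (log2 fold change 0.22, adjusted p = 0.0941, edgeR), but did without CBS KO replicate 1 (adjusted p = 0.000157), with DESeq2 (adjusted p = 0.0407) and with the replicate block (adjusted p = 0.0377).

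Isoforms typical of other tissues or conditions were scarce. COX6B2, the testis form of COX6B1, had 1.39, 1.85 and 2.03 CPM in CBS KO and 0.49, 0.60 and 0.49 CPM in WT, a 3.28-fold rise (log2 fold change 1.71, SE 0.29, edgeR adjusted p = 5.43e-05) that rests on 63.4 counts in CBS KO and 29.1 in WT. It made up 0.22% of the summed TPM of COX6B1 and COX6B2 in CBS KO and 0.07% in WT. COX4I2, the form of COX4I1 that hypoxia induces in lung and other tissues, had 2 counts over the CBS KO libraries and 1 over the WT libraries and was not tested. COX7A2L was not scarce, and its share depended on the unit. It made up 18.8 ± 0.44% of the summed TPM of COX7A2 and COX7A2L in CBS KO and 16.9 ± 0.38% in WT. In counts COX7A2L made up 63.2 ± 3.29% in CBS KO and 59.0 ± 0.48% in WT.

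NDUFA4 is a complex IV subunit in spite of its name, and C15orf48 encodes a relative that is known to take its place in inflammation. NDUFA4 rose 1.36-fold, to 90.8, 98.4 and 109 CPM in CBS KO against 77.2, 83.9 and 58.4 CPM in WT (log2 fold change 0.44, SE 0.12, edgeR adjusted p = 0.00532). NDUFA4 no longer passed once CBS KO replicate 3 was left out (adjusted p = 0.161, edgeR), and the log2 fold change was -0.13 in TPM. C15orf48 rose 2.69-fold, to 6.97, 7.03 and 7.80 CPM in CBS KO against 2.91, 2.96 and 2.24 CPM in WT (log2 fold change 1.42, SE 0.15, edgeR adjusted p = 2.76e-07). Its share of the summed TPM of both genes was 27.4, 25.5 and 24.6% in CBS KO and 14.8, 14.3 and 15.0% in WT. That share depends on the gene lengths behind the TPM. In counts C15orf48 made up 6.82 ± 0.27% in CBS KO and 3.58 ± 0.15% in WT. The 2 groups of shares do not overlap in either unit, and with 3 libraries against 3 an exact permutation test cannot go below p = 0.10.

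The 9 assembly factors with a COX name build complex IV and are not part of it. COX17, the copper chaperone that supplies the copper centres, had 28.04, 34.1 and 39.7 CPM in CBS KO and 16.5, 19.2 and 17.8 CPM in WT (log2 fold change 0.93, SE 0.11, edgeR adjusted p = 1.29e-06). COX19, which also takes part in copper delivery, rose 1.37-fold, and COX14 and COX20, which act on the newly made catalytic subunits, rose 1.51-fold and 1.15-fold, though COX20 did not pass once WT replicate 1 was left out (adjusted p = 0.0573, edgeR). COX10 and COX15 make the heme a of complex IV in consecutive steps and moved apart. COX10 had 22.5, 20.0 and 19.8 CPM in CBS KO and 13.8, 14.7 and 14.4 CPM in WT (log2 fold change 0.54, SE 0.09, edgeR adjusted p = 3.25e-05). COX15 had 51.3, 52.3 and 49.7 CPM in CBS KO and 58.6, 57.0 and 59.2 CPM in WT (log2 fold change -0.19, SE 0.06, edgeR adjusted p = 0.0137). COX11, which acts in copper insertion, fell 1.22-fold with 54.8, 63.0 and 58.0 CPM in CBS KO and 67.6, 73.7 and 72.3 CPM in WT. COX16 and COX18 did not pass (adjusted p = 0.367 and adjusted p = 0.0689, edgeR).

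Assembly factors of complex IV without a COX name ranged from -3.13 to 1.68 in log2 fold change. Of 22 genes 8 rose and 11 fell with TMM, with a median of -0.19, where 38.4% of all genes were higher and 38.9% lower. In TPM 5 of them were higher and 14 lower, against 15.3% and 67.6% of all genes. TMEM177, which helps to stabilise the catalytic subunit COX2, fell 8.73-fold to 2.95, 4.04 and 4.31 CPM in CBS KO, against 33.3, 33.7 and 31.8 CPM in WT (log2 fold change -3.13, SE 0.12, edgeR adjusted p = 5.41e-13). The copper chaperones SCO1 and SCO2, which receive copper from COX17, fell 2.30-fold and 2.42-fold, and TACO1, which activates translation of the catalytic subunit COX1, fell 2.40-fold. SCO1 had 16.5, 16.5 and 14.4 CPM in CBS KO and 35.5, 36.4 and 36.9 CPM in WT, so COX17 and its copper acceptors changed in opposite directions. HIGD1A, a hypoxia-induced protein that binds complex IV, rose 3.21-fold to 143, 155 and 150 CPM in CBS KO, against 46.1, 45.0 and 48.3 CPM in WT. In TPM the log2 fold changes of TMEM177, SCO1, SCO2, TACO1 and HIGD1A were -3.45, -1.41, -1.75, -1.76 and 1.08.

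Complex V had 8 of 18 tested genes higher and 5 lower with TMM, with log2 fold changes of -0.58 to 0.58, and none higher and 14 lower with TPM. Among all genes 38.4% were higher and 38.9% lower with TMM, and 15.3% higher and 67.6% lower with TPM. Its F1 part makes ATP and has the subunits alpha (ATP5F1A) and beta (ATP5F1B) around a rotating stalk (ATP5F1C, ATP5F1D and ATP5F1E). ATP5F1A fell 1.35-fold, with 458, 472 and 527 CPM in CBS KO and 671, 651 and 639 CPM in WT (log2 fold change -0.43, SE 0.07, edgeR adjusted p = 1.46e-05). ATP5F1B fell 1.11-fold, with 655, 631 and 705 CPM in CBS KO and 732, 740 and 748 CPM in WT. The call for ATP5F1B (adjusted p = 0.0301, edgeR) was lost with median-ratio size factors (adjusted p = 0.051), without each WT library in turn and without CBS KO replicate 2, where the adjusted p reached 0.152. ATP5F1E, the smallest F1 subunit, rose 1.44-fold, with 189, 237 and 292 CPM in CBS KO and 168, 157 and 174 CPM in WT (edgeR adjusted p = 0.00851), and was not called without a filter (adjusted p = 0.0624). ATP5F1C rose by a log2 fold change of 0.16, a call lost without CBS KO replicate 2 or 3, without each WT replicate and without a filter (adjusted p = 0.0844, edgeR), and ATP5F1D did not pass (adjusted p = 0.647, edgeR).

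The c subunit, which forms the rotating ring in the membrane, is known to be encoded by 3 genes whose mature proteins are identical and whose import sequences differ. ATP5MC1 fell, with 37.4, 39.1 and 50.2 CPM in CBS KO and 58.6, 64.0 and 67.5 CPM in WT (log2 fold change -0.58, SE 0.10, edgeR adjusted p = 4.64e-05). ATP5MC2 rose 1.24-fold, with 79.1, 94.1 and 110 CPM in CBS KO and 70.6, 83.6 and 74.2 CPM in WT, groups that overlap, and the call was lost without WT replicate 1 or 3 (adjusted p = 0.0637 and adjusted p = 0.0502, edgeR). ATP5MC3 did not pass, at 220 ± 23.0 CPM in CBS KO and 228 ± 6.65 CPM in WT (adjusted p = 0.473, edgeR), but was called lower without CBS KO replicate 3 (log2 fold change -0.15, adjusted p = 0.0102). As a share of the summed TPM of the 3 genes, ATP5MC1 made up 27.8, 25.9 and 27.4% in CBS KO and 39.0, 38.4 and 41.2% in WT, and ATP5MC2 53.7, 55.8 and 54.7% in CBS KO and 41.2, 44.4 and 40.2% in WT. ATP5MC3 stayed at 18.2 ± 0.31% in CBS KO and 18.5 ± 1.36% in WT. A share within a library does not depend on the scaling of the libraries. It depends on the gene length behind the TPM: in counts ATP5MC3 made up 61.7 ± 1.35% in CBS KO and 62.1 ± 2.08% in WT, and ATP5MC1 11.8 ± 0.57% in CBS KO and 17.2 ± 0.86% in WT.

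**Figure D3:**
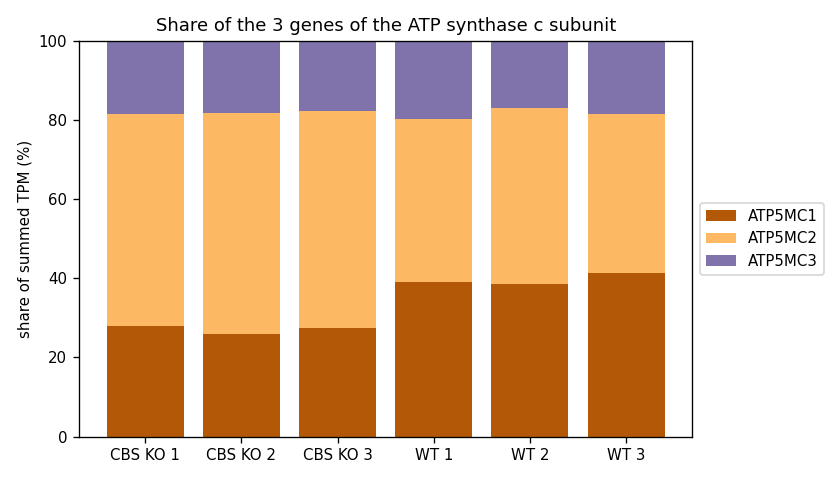
Share of ATP5MC1, ATP5MC2 and ATP5MC3 in their summed TPM (y axis, %) in each library (x axis). ATP5MC1 takes 25.9 to 27.8% in CBS KO and 38.4 to 41.2% in WT, ATP5MC2 takes 53.7 to 55.8% in CBS KO and 40.2 to 44.4% in WT, and ATP5MC3 overlaps between the groups.

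In the peripheral stalk, which holds F1 still, none of 4 genes rose. ATP5PF fell 1.21-fold, with 32.6, 41.6 and 42.3 CPM in CBS KO and 48.3, 46.0 and 46.8 CPM in WT (edgeR adjusted p = 0.00829), and ATP5PB, ATP5PD and ATP5PO did not pass. Of the small membrane subunits, which shape the dimer at the edge of the cristae, 4 of 5 rose and 1 fell with TMM. With TPM none of them rose and 2 fell, against 15.3% higher and 67.6% lower among all genes. The log2 fold changes of ATP5MG, ATP5MJ and ATP5MK were 0.58, 0.52 and 0.56. ATP5ME rose 1.28-fold (adjusted p = 0.0491, edgeR), with groups that overlap and a call lost without CBS KO replicate 2 or 3 or WT replicate 2 or 3, without a filter and with the replicate block (adjusted p = 0.068).

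ATP5MF went the other way from its neighbours in the membrane, with 27.3, 35.1 and 42.4 CPM in CBS KO and 45.3, 52.1 and 49.6 CPM in WT (log2 fold change -0.49, SE 0.12, edgeR adjusted p = 0.00284). ATP5MF-PTCD1, a read-through of ATP5MF into the next gene, had 10.2 counts in CBS KO and 30.3 in WT, with 0 counts in 2 CBS KO libraries and 1 WT library, and was not tested. ATP5IF1, the inhibitor that keeps ATP synthase from running backwards, rose 1.39-fold, with 96.9, 106 and 118 CPM in CBS KO and 75.4, 75.8 and 79.2 CPM in WT (log2 fold change 0.48, SE 0.07, edgeR adjusted p = 1.24e-05), but was called lower with TPM (log2 fold change -0.28). Of 7 assembly factors of complex V 2 rose and 4 fell with TMM, where 38.4% of all genes were higher and 38.9% lower. In TPM none of these factors was higher and 5 were lower, against 15.3% and 67.6% of all genes. With TMM TMEM70 fell 1.74-fold, ATPAF1 1.58-fold and DMAC2L by 0.59 in log2 units, and TMEM242 rose 1.44-fold.

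Most of these proteins are short, and across the transcriptome short coding sequences went with higher values in CBS KO. The median coding length was 387 bases for the 53 genes and 1422 bases for the 12955 tested genes with a length in GENCODE 29. Across the 53 genes the log2 fold change and the coding length had a Spearman rho of -0.54 (Pearson r with log10 length -0.45), and across all genes a rho of -0.18. Genes share their libraries and are not independent replicates, so these coefficients are descriptions. Of the 18 genes of up to 300 coding bases 83.3% were higher, against 63.6% of the 225 such genes in all. Their median log2 fold change of 0.4555 was, however, no larger than the 0.462 of all such genes. Of the 20 genes of 300 to 600 bases 55.0% were higher, against 54.6% of 1323, with a median of 0.26 against 0.33. The 7 genes of 600 to 1000 bases had a median log2 fold change of -0.08, against 0.11 for all genes of that length. The 5 genes of 1000 to 1500 bases had a median of 0.22, against -0.03, and the 3 genes of 1500 to 2500 bases a median of -0.16, against -0.07. Taken against the median of all genes in the same length class, 23 of the 53 genes lay above it and the others at or below it. These 23 were 1 of 4 in complex II, 4 of 9 in complex III, CYCS, 7 of 12 in complex IV, 4 of 9 assembly factors and 6 of 18 in complex V.

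**Figure D4:**
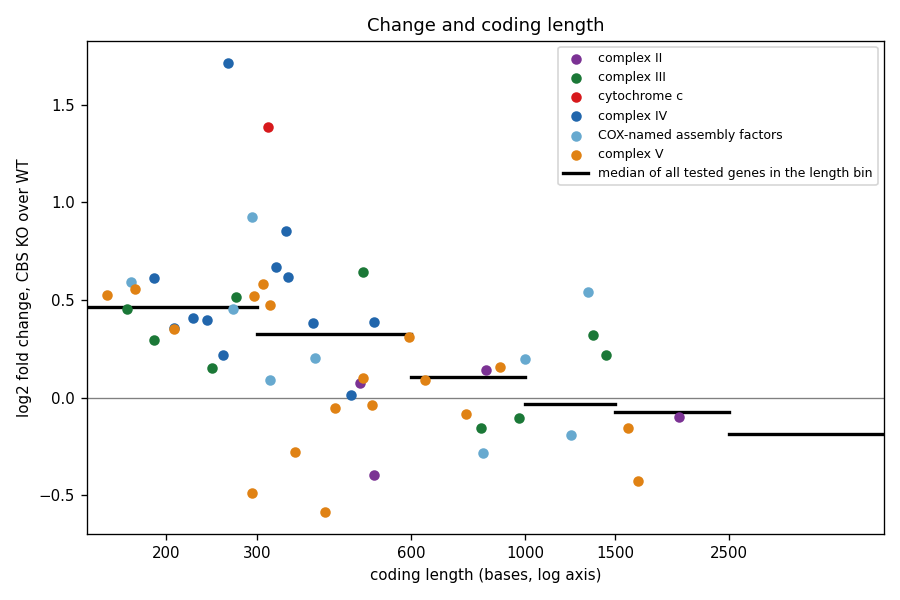
Log2 fold change of CBS KO over WT (y axis, TMM) against coding length in bases (x axis, log scale) for the 53 genes, with black lines for the median of all tested genes in each length class. The line falls from 0.46 at up to 300 bases to -0.18 above 2500 bases, and 23 of the 53 points lie above it, with CYCS and COX6B2 furthest up.

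Genes that work around these complexes moved in both directions. The counts that follow are for TMM, where 38.4% of all genes were higher and 38.9% lower, and most lists shift to lower calls under the other scalings, as all genes do. The shares of all genes were 22.8% higher and 56.8% lower by library total, and 15.3% higher and 67.6% lower in TPM. Of 37 nuclear subunits of complex I 10 rose and 13 fell, with a median log2 fold change of -0.09, whereas 1 was higher and 27 lower by library total and none was higher and 32 were lower in TPM. NDUFA8 and NDUFA13 fell 1.67-fold and 1.48-fold while NDUFC1 rose 1.57-fold. Of 7 assembly genes of complex III and of cytochrome c 1 rose and 2 fell, against none higher and 7 lower in TPM. BCS1L, which inserts the Rieske protein UQCRFS1, fell 2.69-fold to 10.2, 7.91 and 9.11 CPM in CBS KO, against 23.6, 24.5 and 25.4 CPM in WT. Of the 4 assembly factors of complex II SDHAF2, which puts the flavin into SDHA, fell 1.70-fold and SDHAF3 rose 1.63-fold. Of 13 genes of coenzyme Q synthesis 1 rose and 8 fell (median -0.31), with COQ9 and COQ3 down 2.08-fold and 1.89-fold and COQ10B, a coenzyme Q binding protein, up 2.74-fold. Of 8 enzymes that feed electrons to coenzyme Q 2 rose and 3 fell, among them DHODH, of pyrimidine synthesis, which fell 2.72-fold, and GPD2, the glycerol phosphate dehydrogenase, which rose 1.57-fold.

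Of 10 genes of ATP and ADP exchange 8 were higher and 2 lower, with a median log2 fold change of 0.66, whereas in TPM 4 were higher and 4 lower with a median of 0.06. For this and the next lists the shares of all genes were 38.4% higher and 38.9% lower with TMM. In TPM they were 15.3% higher and 67.6% lower. VDAC2, a channel of the outer membrane, rose 2.42-fold and the ADP/ATP translocase SLC25A5 1.70-fold. Regulators of mitochondrial gene expression were divided, with 5 of 14 higher and 7 lower (median -0.23), or 1 higher and 10 lower in TPM. TWNK, the helicase of mitochondrial DNA, fell 3.27-fold, and the coactivators PPRC1 and PPARGC1B had log2 fold changes of -0.93 and -0.90. NFE2L2, the factor of the antioxidant response, rose 1.89-fold. Import genes were divided too, with 8 of 24 higher and 10 lower, or 1 higher and 20 lower in TPM. TIMM8B, an intermembrane chaperone, fell 2.97-fold, while TOMM7, a small subunit of the outer translocase, rose 2.02-fold. TIMM8B overlaps SDHD on the other strand, and whether the counting used strand is not stated. Of the 13 genes of cristae and cardiolipin 5 rose and 4 fell, and in TPM none was higher and 11 were lower. Of 7 tested genes of the hypoxic switch away from oxidation 5 rose and 2 fell (median log2 fold change 0.75, or -0.01 in TPM), with PDK1, which inhibits pyruvate entry, up 2.71-fold and LONP1, the matrix protease, down by a log2 fold change of -0.27.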

How the data were processed

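Total RNA of 3 CBS KO and 3 WT samples of Caco-2 cells was sequenced from oligo(dT)-selected, dUTP-marked libraries, per the labels' protocols. Tools listed by the submitters' processing notes, with no role given, were HISAT2 2.2.1, cutadapt 1.9, edgeR, DESeq2 and StringTie 2.1.6, on GRCh38. The authors deposited estimated counts per gene, which are not normalised, FPKM, which divide by length and library total, and TPM, which have the same sum in each library, as column names and values show (per the file headers). The 6 columns of group means made by the authors were not used. How reads with several matches and strand were handled is not given in the sources used here. Of the 56 genes 32 have annotated pseudogene copies, and 23 of the 54 found in GENCODE overlap a gene on the other strand, so their counts may be shared. The length implied by counts and FPKM varies (8161 bases for UQCRB and 38.3 for ATP5ME in WT), which limits comparisons of TPM between genes.

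Estimated counts were rounded, filtered with filterByExpr, scaled by TMM and tested with edgeR 4.0.16 (quasi-likelihood, robust, R 4.3.3) on 13028 genes, CBS KO against WT, with no covariate. Alternatives used DESeq2 1.42.0 and limma 3.58.1 on log2(value + 1) of FPKM or TPM for genes at 1 or more in at least 3 libraries. The edgeR test was also run on simulated counts in which few genes changed, as many up as down. In these data 77.2% of genes were called, so that run cannot show how the test behaves here. The SE is the estimate divided by the root of its F statistic. The limit set by a count of 0 (3 counts) was 0.185 to 0.234 CPM of the unscaled library total. CPM of untested genes and sums use the effective library sizes of the tested genes. Counts and limits cover counting error only. The labels do not say that replicate numbers pair the samples, and the main fit did not pair them (see the dependence on processing). The genes, lists and rules for naming genes were chosen with earlier results of these data known. Named were genes with a log2 change of at least 1, the extremes of each complex, paralogs, untested genes, genes within 0.15 of no change, and up to 4 called genes per list. SCO1, NDUFA13, LONP1, VWF, COL1A1, VIL1, KRT18, KRT19, CDH1 and the genes of each complex outside these extremes were named after their values were seen.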

Additional observations from a re-analysis of the deposited data

How the results depend on the processing

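The balance of higher and lower calls depended on the scaling of the libraries. DESeq2 gave 31 higher and 8 lower among the genes of complexes II to V and cytochrome c. Among all genes 4998 were called higher with TMM, against 2966 with the library total, 2722 in FPKM and 1878 in TPM, and 5062 were called lower with TMM, against 8294 in TPM. Of the genes of complexes II to V and cytochrome c 30 were higher and 9 lower with TMM, against 9 and 22 with the library total, 9 and 25 in FPKM and 4 and 36 in TPM. Leaving out 1 library at a time gave 27 to 34 higher and 7 to 12 lower among them, and 4744 to 5028 higher and 4818 to 5234 lower among all genes. The labels do not say whether replicate numbers pair the samples. Same-numbered libraries had correlations of 0.067, 0.00687 and 0.0386 in their deviations from the group means, and differently numbered ones -0.0598 to 0.0184. Values this small cannot decide the question. The replicate block gave 30 higher and 9 lower. The following values had the opposite sign to that with TMM, and the medians of all genes under each scaling, given in the report, moved in the same direction. They cover the tested genes of complexes II to V and cytochrome c, but only some genes of the other lists. With the library total the log2 fold change was -0.21 for SDHB, -0.28 for SDHD, -0.14 for UQCRC1, -0.034 for UQCRC2, -0.20 for UQCRQ, -0.061 for UQCR10, -0.34 for COX5A, -0.14 for COX6B1, -0.0005 for COX8A, -0.26 for COX16, -0.15 for COX18, -0.15 for COX20, -0.20 for ATP5F1C and -0.045 for ATP5MC2. Under the same scaling it was -0.26 for ATP5PD, -0.27 for ATP5PO, -0.0054 for ATP5ME and -0.044 for TTC19. In FPKM the log2 fold change was -0.21 for SDHB, -0.27 for SDHD, -0.14 for UQCRC1, -0.031 for UQCRC2, -0.21 for UQCRQ, -0.076 for UQCR10, -0.34 for COX5A, -0.15 for COX6B1, -0.0044 for COX8A, -0.23 for COX16, -0.31 for COX18, -0.14 for COX20, -0.17 for ATP5F1C and -0.044 for ATP5IF1. Under the same scaling it was -0.054 for ATP5MC2, -0.25 for ATP5PD, -0.27 for ATP5PO, -0.24 for TTC19 and -0.37 for APOOL. In TPM the log2 fold change was -0.44 for SDHB, -0.51 for SDHD, -0.37 for UQCRC1, -0.26 for UQCRC2, -0.092 for UQCRH, -0.44 for UQCRQ, -0.31 for UQCR10, -0.14 for UQCR11, -0.20 for COX4I1, -0.58 for COX5A, -0.20 for COX5B, -0.38 for COX6B1, -0.17 for COX6C and -0.20 for COX7B. Under the same scaling it was -0.24 for COX8A, -0.042 for COX10, -0.020 for COX14, -0.46 for COX16, -0.53 for COX18, -0.12 for COX19, -0.37 for COX20, -0.40 for ATP5F1C, -0.080 for ATP5F1E, -0.28 for ATP5IF1, -0.29 for ATP5MC2, -0.48 for ATP5PD, -0.50 for ATP5PO and -0.20 for ATP5ME. Under the same scaling it was -0.013 for ATP5MG, -0.11 for ATP5MJ, -0.14 for ATP5MK, -0.011 for NDUFA1, -0.13 for NDUFA4, -0.47 for TTC19, -0.049 for TMEM242, -0.60 for APOOL, -0.080 for CHCHD6, -0.029 for ETFA, -0.0083 for ISCU and -0.080 for KRT8. For KRT18 and KRT19 the log2 fold change in TPM was -0.24 and -0.16. Without a filter the log2 fold change was -0.023 for COX5A. Without CBS KO replicate 3 the log2 fold change was -0.11 for COX5A and -0.026 for ATP5PO. Without CBS KO replicate 1 the log2 fold change was 0.021 for ATP5F1D. Leaving out 1 library at a time gave -0.11 to 0.094 for COX5A and -0.026 to 0.17 for ATP5PO. The cause of the changes of sign without a filter or without a library was not tested. Depth limits COX4I2, UQCRHL and ATP5MF-PTCD1, which were too scarce to test, and COX6B2, which rests on few counts. Pseudogene copies, overlapping genes and the lengths behind FPKM and TPM limit comparisons between genes.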

Other observations

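Summed over the genes of a complex, levels depended on the unit. Complex II summed to 460 ± 10.7 TPM in CBS KO and 779 ± 15.6 TPM in WT (SD, n = 3 in each), and to 542, 562 and 568 CPM in CBS KO and 605, 611 and 599 CPM in WT, below WT in both units. Complex III summed to 1819 ± 74.6 TPM in CBS KO and 2197 ± 44.4 TPM in WT, and to 1206, 1321 and 1492 CPM in CBS KO and 1109, 1109 and 1152 CPM in WT. Complex IV summed to 6960 ± 341 TPM in CBS KO and 7526 ± 54.3 TPM in WT, and to 1607, 1864 and 2152 CPM in CBS KO and 1343, 1343 and 1361 CPM in WT. The sums of complexes III and IV thus lay below WT in TPM and above WT in CPM. Complex V summed to 5489 ± 96.8 TPM in CBS KO and 7924 ± 20.3 TPM in WT, while its CPM sums overlapped, at 2608, 2810 and 3159 in CBS KO and 2899, 2886 and 2939 in WT. The median of all genes in TPM was itself a log2 fold change of -0.54. These sums give most weight to the genes with the shortest lengths in TPM and to the most counted genes in CPM.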
